A study of Mus musculus with 4 samples.

Results

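The 37 genes described here encode the glucose and lactate transporters, glycolytic enzymes and pyruvate dehydrogenase kinases of the mouse, together with hypoxia-inducible genes and the subunits of the factor that induces them. They were taken by gene symbol from the 32285 genes of the olfactory bulb count matrix. The rule itself uses no measured value, but the members and lists were chosen with earlier results of these data known. Counts of members set beside the share over all genes are therefore descriptions and not independent support. By role they fall into 4 transporters, 16 glycolytic enzymes, 2 pyruvate dehydrogenase kinases, 11 hypoxia targets that do not act in glycolysis, and 4 genes of the oxygen-sensing machinery itself (the hypoxia-inducible factor subunits and Vhl). All 37 have a row in the matrix, and all 37 passed the minimum of 100 unique molecular identifiers (UMIs) in all and 3 in each library.

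The study set the olfactory bulb of 1 mutant mouse beside that of 1 control mouse, both at an age of 5 months. The mutant carried a transgenic soluble VEGFR1, which binds vascular endothelial growth factor (VEGF), under a tetracycline-regulated system driven by camk2a-tTa. VEGF was blocked at e13.5, and the design text describes a degenerated bulb. The control mouse has the genotype control and no listed blockade, but carries the same protocol text, so that the labels leave unsaid which transgenes it had. A Camk2a driver acts mainly in forebrain excitatory neurons. Each mouse gave 2 capture areas of a Visium slide, with 2 sections on each mutant area and 2 and 1 sections on the control areas, cut at 10 micrometres from fresh-frozen tissue. A Visium spot captures the polyadenylated RNA of whatever cells lie above it, usually more than 1. The matrix tells its 4 libraries apart by a number only, and none of these numbers occurs in the sample labels. Every value is therefore given by library number, no library stands for either mouse, and mutant and control are not compared.

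After removal of spots with fewer than 500 UMIs, libraries 1 to 4 held 1662, 715, 1296 and 943 spots and 13304973, 5223890, 12533691 and 9533952 UMIs. The 37 genes made up 1.43%, 1.35%, 1.57% and 1.505% of these UMIs. Levels are given as CPM, the UMIs of a gene per 1000000 UMIs of the library, with exact Poisson intervals at 95%. Where 4 values follow each other they belong to libraries 1, 2, 3 and 4, in that order. Ratios between libraries carry exact conditional binomial intervals and shares carry exact Clopper-Pearson intervals. There is no replicate check, and all intervals cover counting error only. A sum of 3 UMIs corresponds to 0.225 to 0.574 CPM. All genes of the granule cell, periglomerular, mitral and tufted cell and sensory axon marker lists were detected in every library. So were those of all other marker lists, among them the forebrain excitatory and nasal mucosa lists. Detection alone therefore cannot check the labelled tissue. The libraries held different tissue regions, and a level in a whole library depends on its mixture of cells. In such sums fewer cells of a type and less RNA per cell cannot be told apart.

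Glycolysis splits glucose into pyruvate, which either enters the mitochondria through pyruvate dehydrogenase or is reduced to lactate by lactate dehydrogenase. Lactate dehydrogenase is assembled from A subunits, encoded by Ldha, which predominate in tissues that make lactate, and B subunits, encoded by Ldhb, which predominate in tissues that burn it. In brain, astrocytes are known for glycolysis and lactate release, and neurons for use of lactate. When oxygen is ample, prolyl hydroxylases of the Egln family mark the HIF alpha subunits for destruction by the Vhl ubiquitin ligase. When oxygen is short, HIF alpha pairs with Arnt and binds hypoxia response elements, whose core reads ACGTG or GCGTG. HIF activity is therefore set mostly by protein stability, and the RNA of the HIF subunits need not follow that of their targets.

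The promoters of the 6 genes on which the following results mainly turn are printed first, because the members were grouped as HIF targets and these letters show the core motif in its place. Each sequence covers the 250 bases before the gene's start in RefSeq's table on build GRCm38.p6, 5′ to 3′ in the direction of transcription, with the core motif of either strand in capitals. Where the motif lies on the opposite strand it appears as CACGT or CACGC. The coordinates are chr7:46845554-46845803 on the plus strand for Ldha, chr6:142507958-142508207 on the minus strand for Ldhb, chr11:120948817-120949066 on the plus strand for Slc16a3, chr7:138909507-138909756 on the minus strand for Bnip3, chr7:110627407-110627656 on the plus strand for Adm and chr10:59323046-59323295 on the plus strand for P4ha1.
Ldha: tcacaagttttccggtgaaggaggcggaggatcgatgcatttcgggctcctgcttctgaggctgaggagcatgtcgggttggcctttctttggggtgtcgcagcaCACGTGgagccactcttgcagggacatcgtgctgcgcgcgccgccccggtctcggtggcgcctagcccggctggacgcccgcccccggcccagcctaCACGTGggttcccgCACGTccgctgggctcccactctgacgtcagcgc
Ldhb: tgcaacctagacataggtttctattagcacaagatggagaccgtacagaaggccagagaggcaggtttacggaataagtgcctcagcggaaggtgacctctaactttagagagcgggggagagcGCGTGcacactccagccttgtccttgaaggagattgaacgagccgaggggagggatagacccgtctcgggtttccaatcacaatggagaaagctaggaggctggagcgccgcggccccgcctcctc
Slc16a3: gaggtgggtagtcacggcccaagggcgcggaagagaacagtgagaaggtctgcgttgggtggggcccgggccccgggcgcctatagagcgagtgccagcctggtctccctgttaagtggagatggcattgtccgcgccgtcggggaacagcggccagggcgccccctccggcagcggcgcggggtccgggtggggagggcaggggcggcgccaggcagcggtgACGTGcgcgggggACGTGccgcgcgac
Bnip3: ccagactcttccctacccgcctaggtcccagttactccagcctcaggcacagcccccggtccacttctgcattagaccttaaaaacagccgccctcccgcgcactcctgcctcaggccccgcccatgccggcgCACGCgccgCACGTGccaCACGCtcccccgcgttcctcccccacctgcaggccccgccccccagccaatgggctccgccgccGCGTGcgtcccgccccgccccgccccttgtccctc
Adm: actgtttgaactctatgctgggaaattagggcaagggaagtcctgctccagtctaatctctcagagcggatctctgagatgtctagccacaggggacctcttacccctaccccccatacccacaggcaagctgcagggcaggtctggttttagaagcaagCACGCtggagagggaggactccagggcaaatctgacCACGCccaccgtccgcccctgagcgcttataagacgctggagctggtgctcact
P4ha1: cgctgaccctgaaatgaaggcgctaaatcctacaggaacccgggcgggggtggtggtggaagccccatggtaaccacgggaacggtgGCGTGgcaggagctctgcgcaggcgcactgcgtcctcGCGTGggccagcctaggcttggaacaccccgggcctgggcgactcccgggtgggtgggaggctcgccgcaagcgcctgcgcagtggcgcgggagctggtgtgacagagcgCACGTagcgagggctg
Ldha held ACGTG 5 times in this window counting both strands, since the palindrome CACGTG counts on each, and held no GCGTG. Ldhb held a single GCGTG, 126 bases before the start. Slc16a3 held ACGTG at 27 and 14 bases before the start, and Adm held GCGTG on the opposite strand at 90 and 54 bases. Bnip3 held 2 matches to ACGTG and 3 to GCGTG, and P4ha1 held 1 and 2.

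Of the 37 genes, 33 had an entry in the promoter table. The exceptions were Slc2a3, Bnip3l, Ndrg1 and Epas1. Either core motif was found in 25 of these 33 promoters (75.8%), against 10442 of 27025 promoters of the same length over all genes (38.6%). The share was 10 of 16 for the glycolytic enzymes (62.5%), 8 of 9 for the hypoxia targets (88.9%) and 3 of 3 for the transporters. It was 2 of 2 for the pyruvate dehydrogenase kinases and 2 of 3 for the HIF subunits and Vhl (66.7%). Both motifs contain CG, and the promoters of all genes were not matched to those of the members in base composition. The difference in share therefore cannot be read as an excess of hypoxia response elements. A match of 5 letters is a description of the sequence and not a binding site, and CACGTG is also the E-box bound by other factors.

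The widest differences between libraries were those of Slc16a3, Adm, Hk2 and Ldha, while most of the glycolytic chain was nearly level. For 15 of the 37 genes, the highest of the 4 library levels exceeded the lowest by over 1.5-fold, against 4056 of 13350 genes (30.4%) over the whole matrix. Over 2-fold there were 10 of 37, against 14.2% of all genes. By role, the 1.5-fold threshold was passed by 2 of 4 transporters, 4 of 16 glycolytic enzymes, 1 of 2 pyruvate dehydrogenase kinases, 8 of 11 hypoxia targets and 0 of 4 genes of the HIF subunits and Vhl. The glycolytic enzymes thus lay near the background share. Of the 37 genes, 14 passed the threshold with their highest level in library 3, against 1361 of 13350 genes (10.2%) over the whole matrix. Among the genes past the threshold, this was 14 of 15 members against 1361 of 4056 of all genes. Ldhb passed it with its highest level in library 1 (5.36% of all genes). None did so in library 2 (6.14%) or library 4 (8.68%). A ratio of highest to lowest is at least 1 by construction, and its median was 1.304 over the glycolytic enzymes, 1.87 over the hypoxia targets, 1.61 over the transporters, 1.18 over the HIF subunits and Vhl, and 1.299 over all genes. Just inside the threshold lay Ldhb and P4ha2, both at 1.51, and just outside it lay Tpi1, at 1.499.

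**Figure D1:**
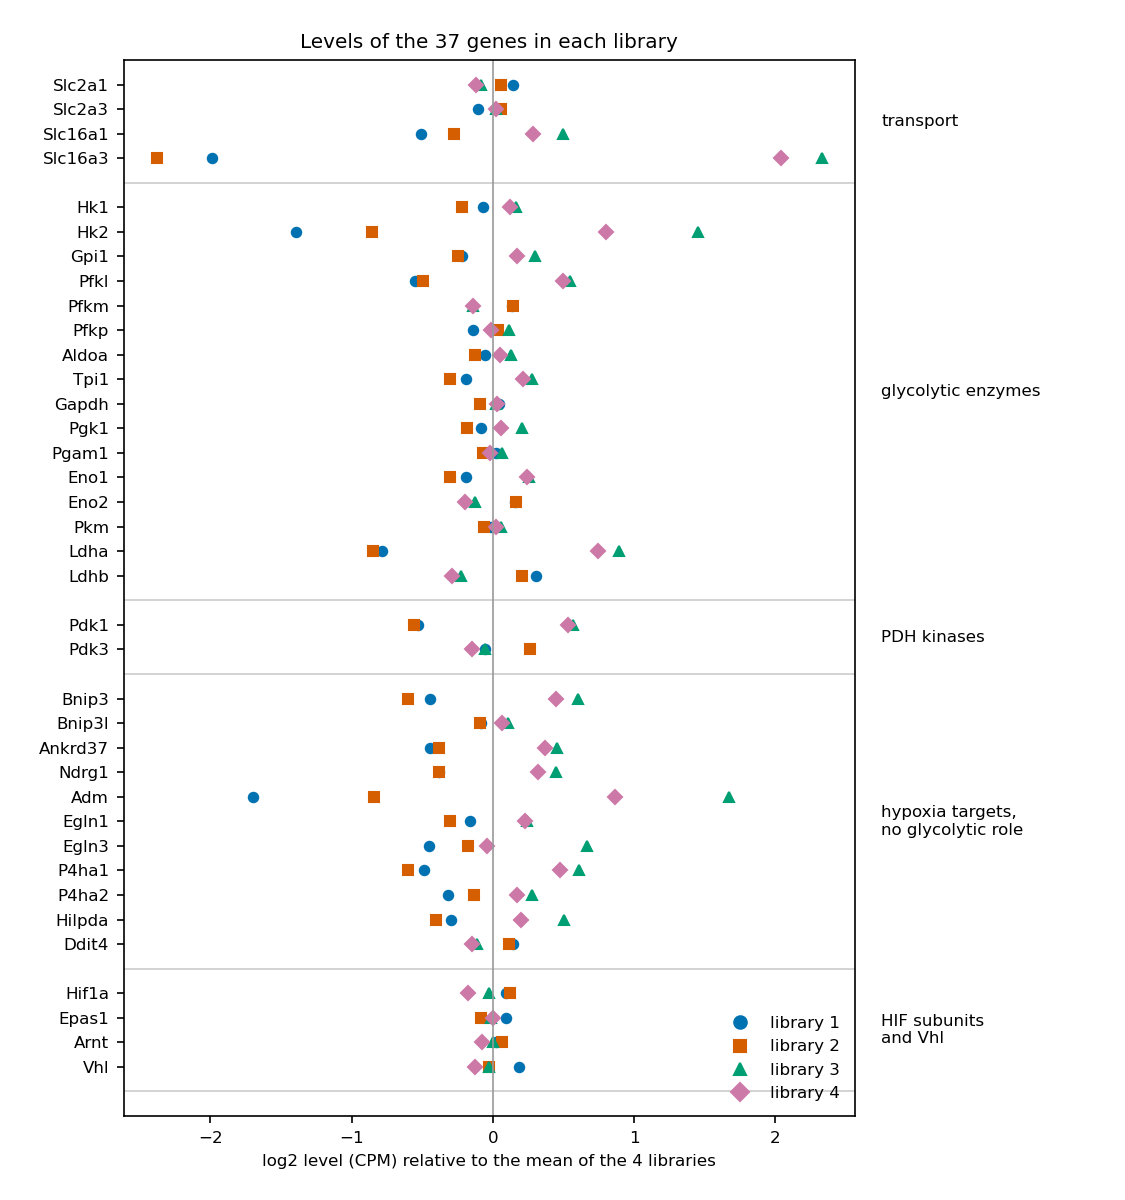
Level of each of the 37 genes in libraries 1 to 4, as the log2 of its CPM relative to the mean of the log2 levels of the 4 libraries, grouped by role; each point is 1 library. Slc16a3, Hk2 and Adm have the widest spread, with libraries 3 and 4 to the right, and most glycolytic enzymes lie close to 0.

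Among the transporters, the lactate carriers differed between libraries and the glucose carriers hardly did. Slc16a3 (ENSMUSG00000025161) encodes MCT4, the lactate exporter of glycolytic cells. Library 1 had 0.752 CPM (interval 0.360 to 1.38), library 2 had 0.574 (0.118 to 1.68), library 3 had 15 (12.9 to 17.3) and library 4 had 12.3 (10.1 to 14.7). These levels rest on 10, 3, 188 and 117 UMIs, and libraries 3 and 4 lay far above libraries 1 and 2. The ratio of library 3 to library 2 was 26.1, with a wide interval of 8.80 to 128 because of the 3 UMIs in library 2. Slc16a1 (ENSMUSG00000032902), which encodes the broadly expressed carrier MCT1, had levels of 32.0, 37.7, 64.5 and 55.7 CPM, with library 3 exceeding library 1 by a factor of 2.01 (1.79 to 2.27). The glucose transporter gene of blood-brain barrier endothelium and glia, Slc2a1, ranged from 115 CPM in library 4 to 137 CPM in library 1. Its neuronal counterpart Slc2a3 ranged from 116 to 129.6 CPM. Neither reached 1.5-fold, with ratios of 1.2 and 1.12.

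Along the glycolytic chain, 12 of the 16 enzyme genes differed by less than 1.5-fold. Pkm, the pyruvate kinase gene, had 1220.5, 1181, 1282 and 1254 CPM and a ratio of highest to lowest of 1.08 (1.05 to 1.12). Gapdh, with 3242, 2949.7, 3196 and 3214 CPM, had a ratio of 1.10 (1.08 to 1.12). Both were thus level to about the same degree. The aldolase gene Aldoa had a ratio of 1.197, the mutase gene Pgam1 1.10, and the phosphofructokinase subunit genes Pfkp and Pfkm 1.19 and 1.22. Somewhat wider ranges were seen for Eno2 at 1.29, Hk1 at 1.3, Pgk1 at 1.31, Gpi1 at 1.46, Eno1 at 1.48 and Tpi1 at 1.499. The intervals of these 12 ratios all lay above 1. Each sets the library picked as highest against the one picked as lowest and covers counting error only. An interval above 1 therefore does not show that a small difference was resolved. Several of these genes have processed pseudogenes or near-identical copies that could take or lend reads, among them Gapdh, Aldoa, Pgk1, Pgam1 and Eno1. Eno1b had 657 UMIs in all and Aldoart1 112. Aldoa has 2 rows in the matrix, of which the second held 1 UMI and was not used.

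The 4 enzyme genes past 1.5-fold were Ldha, Ldhb, Pfkl and Hk2. For Ldha (ENSMUSG00000063229), library 1 had 220.1 CPM (212 to 228), library 2 had 211 (198 to 223), library 3 had 706 (691 to 720.4) and library 4 had 637 (621 to 653). Libraries 3 and 4 lay above libraries 1 and 2 by far more than counting error, and the ratio of library 3 to library 2 was 3.35 (3.15 to 3.57). Ldhb (ENSMUSG00000030246) was instead higher in libraries 1 and 2 than in libraries 3 and 4, with 1510.3, 1406, 1044 and 1000.1 CPM. Its ratio of library 1 to library 4 was 1.51 (1.47 to 1.55). Pfkl, the liver-type subunit of phosphofructokinase, had 82.0, 85.2, 175 and 169.7 CPM, so that library 3 exceeded library 1 by 2.14 (1.99 to 2.30). Hk2, the inducible hexokinase gene, was sparse, with 14, 8, 95 and 46 UMIs, or 1.05, 1.53, 7.58 and 4.82 CPM. Its ratio of library 3 to library 1 was 7.20 (4.09 to 13.7), and without library 3 the ratio of highest to lowest was 4.59.

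Because 3′ UMI counts do not set levels of different genes on a common scale, the balance within each enzyme family was followed as a share of the family's UMIs and compared only between libraries. Ldha made up 12.7% (12.3 to 13.2), 13.0% (12.3 to 13.8), 40.3% (39.7 to 41.0) and 38.9% (38.1 to 39.7) of the lactate dehydrogenase UMIs of libraries 1 to 4. The intervals of libraries 1 and 2 overlapped each other and lay far below those of libraries 3 and 4. Eno1, the ubiquitous enolase gene, took 33.5%, 31.6%, 45.4% and 46.5% of the UMIs it shares with the neuronal enolase gene Eno2. Pfkl took 10.8%, 10.5%, 20.5% and 20.7% of the phosphofructokinase UMIs. The counterpart was the muscle-type subunit gene Pfkm, at 45.7%, 43.4%, 33.5% and 35.1%, while Pfkp kept 43.5% to 46.1%. Hk2 took 0.546%, 0.877%, 3.26% and 2.16% of the UMIs it shares with Hk1. Of the UMIs of both lactate carriers, Slc16a3 made up 2.29%, 1.5%, 18.9% and 18.1%. Libraries 3 and 4 had the larger shares of Ldha, Eno1, Pfkl, Hk2 and Slc16a3, with intervals above those of libraries 1 and 2, except that for Hk2 the intervals of libraries 2 and 4 overlapped.

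**Figure D2:**
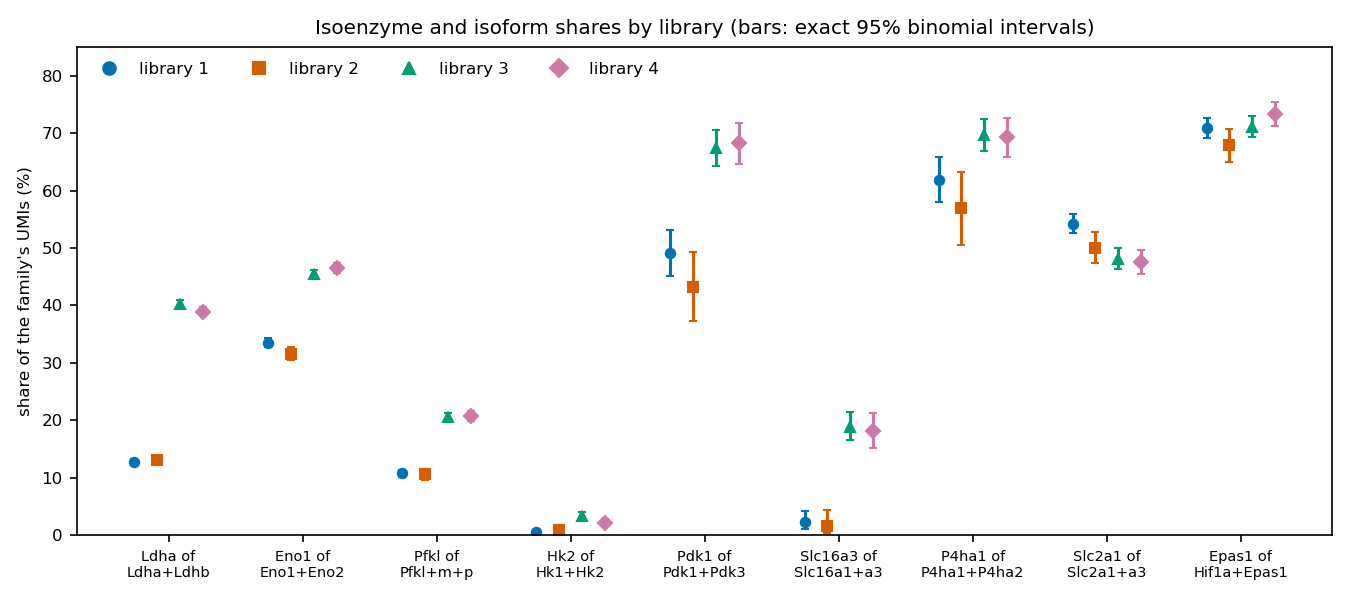
Share of the UMIs of an enzyme or subunit family that fell on the named gene, in percent, for libraries 1 to 4, with exact 95% binomial intervals. The Ldha share is 12.7% and 13.0% in libraries 1 and 2 and 40.3% and 38.9% in libraries 3 and 4, whereas the Epas1 share lies between 67.9% and 73.4% in all 4.

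Pyruvate dehydrogenase kinases phosphorylate and switch off pyruvate dehydrogenase, and Pdk1 is a known HIF target. Pdk1 (ENSMUSG00000006494) had 22.8, 22.4, 48.9 and 47.7 CPM, and the ratio of library 3 to library 2 was 2.18 (1.79 to 2.68). Pdk3 ranged from 22.1 to 29.5 CPM, a ratio of 1.33 (1.08 to 1.65), with its highest value in library 2. Pdk1 therefore took 49.2%, 43.2%, 67.4% and 68.3% of the UMIs of this pair.

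Of the 11 hypoxia targets without a glycolytic role, 8 passed 1.5-fold, and all 8 were highest in library 3. Adm (ENSMUSG00000030790), which encodes the vasodilator peptide adrenomedullin, had the widest range. Library 1 had 2.33 CPM (1.58 to 3.31), library 2 had 4.21 (2.64 to 6.38), library 3 had 24.1 (21.5 to 27.0) and library 4 had 13.7 (11.5 to 16.3). Its ratio of library 3 to library 1 was 10.3 (7.13 to 15.5), and here libraries 3 and 4 also differed beyond counting error. The ratio of highest to lowest was 5.72 without library 1 and 5.90 without library 3. The mitophagy receptor gene Bnip3 (ENSMUSG00000078566) had 97.6, 87.9, 202 and 181 CPM, with library 3 at 2.30 times library 2 (2.08 to 2.54). P4ha1 (ENSMUSG00000019916), which encodes the catalytic subunit of collagen prolyl hydroxylase, had 28.7, 26.6, 61.5 and 55.9 CPM and a ratio of 2.31 (1.93 to 2.79). Its paralog P4ha2 ranged less, from 17.7 to 26.7 CPM, with a ratio of 1.51 (1.28 to 1.80).

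Egln3, an oxygen-sensing prolyl hydroxylase gene that is itself induced by HIF, had 15.03, 18.2, 32.6 and 19.9 CPM. Library 3 stood alone here, and the interval of library 4 (17.2 to 23.0) overlapped that of library 2 (14.7 to 22.2). The ratio of 2.17 (1.82 to 2.58) was 1.33 without library 3, under the threshold. Ankrd37 had 13.6, 14.2, 25.4 and 23.9 CPM and a ratio of 1.87 (1.55 to 2.25). Ndrg1, which is also a gene of myelinating and other glia, had 48.8, 48.6, 86.6 and 79.1 CPM and a ratio of 1.78 (1.55 to 2.05). Hilpda, which encodes an inhibitor of lipolysis on lipid droplets, was sparse at 6.39, 5.93, 11.2 and 9.02 CPM, and its ratio of 1.88 had an interval of 1.27 to 2.87. The members that stayed under 1.5-fold were Egln1, the main HIF prolyl hydroxylase gene, at 1.46, the mitophagy receptor gene Bnip3l at 1.15, and Ddit4, an inhibitor of mTORC1 that stress hormones also induce, at 1.22. Ddit4 was instead higher in libraries 1 and 2 than in libraries 3 and 4, at 88.8, 86.9, 74.3 and 72.5 CPM.

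The genes of the oxygen-sensing factor were nearly level. Epas1, which encodes HIF-2 alpha and is known from endothelium and glia, ranged from 133 to 150.5 CPM, and Hif1a from 51.3 to 63.0 CPM, with ratios of 1.13 (1.034 to 1.23) and 1.23 (1.06 to 1.41). Vhl ranged from 47.1 to 58.5 CPM. The interval of the Arnt ratio, 1.10 (0.887 to 1.37), included 1. Of the UMIs of both alpha subunits, Epas1 took 70.9%, 67.9%, 71.1% and 73.4% in libraries 1 to 4.

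As lists, the hypoxia targets had a span of 0.83 log2 units between their highest and lowest library, and the glycolytic enzymes a span of 0.30. The list level of a library is the median over genes of the log2 level relative to the mean of the 4 libraries. It was -0.38, -0.38, 0.45 and 0.22 for the hypoxia targets in libraries 1 to 4, and -0.08, -0.15, 0.15 and 0.06 for the glycolytic enzymes. Over all genes it was between -0.03 and 0.02. The HIF subunits and Vhl had 0.09, 0.02, -0.02 and -0.10. A span is above 0 by construction and is not tested.

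Marker lists of other cells moved with these levels, and their part in them was not tested. The summed level of the 9 reactive glia genes was 241, 228, 2368 and 1955 CPM in libraries 1 to 4, and 8 of the 9 were highest in library 3. The 10 phagocyte genes summed to 1406, 1329, 3248 and 2725 CPM, all 10 highest in library 3, and the 8 leptomeninges genes to 219, 315, 860.5 and 641 CPM. Red blood cell genes summed to 865, 647, 1477 and 1306 CPM, and the 8 homeostatic astrocyte genes to 1929.7, 1895, 2157 and 2262 CPM. Microglia genes summed to 406, 387, 831 and 764 CPM and forebrain excitatory genes to 1180.2, 1136, 2365 and 2450.2 CPM. Lower in libraries 3 and 4 were periglomerular genes, at 1814, 1608, 599.6 and 617 CPM, sensory axon genes, at 1466, 1142, 565 and 859.5 CPM, granule cell genes, at 3495, 3741, 2429 and 2319 CPM, and endothelial genes, at 423, 397, 345 and 344 CPM. No gene of these lists was at 0 in any library.

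To place the genes within the tissue, spots were clustered into 11 regions with all genes of these lists kept out of the clustering. Each region is named by its leading gene, which stands for no cell type. The Cacna1h region, higher in granule cell genes by 1.37 to 1.78 log2 units over the rest of its library, in neuroblast genes by 1.026 to 1.52 and in oligodendrocyte genes by 0.50 to 1.39, held 411, 221, 197 and 88 spots of libraries 1 to 4. The Klhl30 region, higher in mitral and tufted cell genes by 1.08 to 1.79, held 144, 67, 35 and 33. These were the only 2 regions with at least 30 spots in every library. The Apold1, Lcn11 and Gfy regions lay almost wholly in libraries 1 and 2, and the Nrp2, Trbc2, Mmp12, Necab2 and Lmo3 regions in libraries 3 and 4. The Slc13a4 region lay mostly in libraries 3 and 4, with 22, 19, 132 and 75 spots of libraries 1 to 4.

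Ldha was high in every region of libraries 3 and 4 and low in every region of libraries 1 and 2. It ranged over regions from 187 to 252 CPM in library 1, from 173 to 232 in library 2, from 502 to 974 in library 3 and from 474 to 798 in library 4. The lowest region of library 4 (Necab2) thus lay above the highest region of library 1 (Apold1). The Ldha share of lactate dehydrogenase UMIs ranged over regions from 9.77% to 16.0% in library 1, from 10.6% to 15.1% in library 2, from 26.0% to 51.9% in library 3 and from 22.2% to 47.3% in library 4. Within a library the share was lowest in the Klhl30 region, in all 4 libraries, and in libraries 3 and 4 it was highest in the Mmp12 region.

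Ldhb varied by region within every library. It was highest in the Klhl30 region of every library, at 1846, 1696, 1681 and 1702 CPM. The ratio to the rest of the library there was 1.27, 1.25, 1.64 and 1.76. The lowest levels were 1064 and 1085 CPM in the Gfy region of libraries 1 and 2 and 739.7 and 779.8 CPM in the Slc13a4 region of libraries 3 and 4. The Gfy region was higher in sensory axon genes by 4.47 and 4.35 log2 units and in nasal mucosa genes by 2.73 and 4.29. Leptomeninges (2.752 and 2.32), red blood cell (2.27 and 2.59) and olfactory ensheathing glia genes (2.26 and 2.29) were higher there too. So were reactive glia (2.25 and 2.14), mural (1.69 and 1.95) and endothelial genes (0.997 and 1.11). The Slc13a4 region was higher in leptomeninges genes by 3.40 and 2.90 and in mural genes by 2.41 and 1.67. Red blood cell (1.83 and 2.23) and endothelial genes (1.21 and 1.77) were also higher there. The part of these cells in the levels of the members was not tested.

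**Figure D3:**
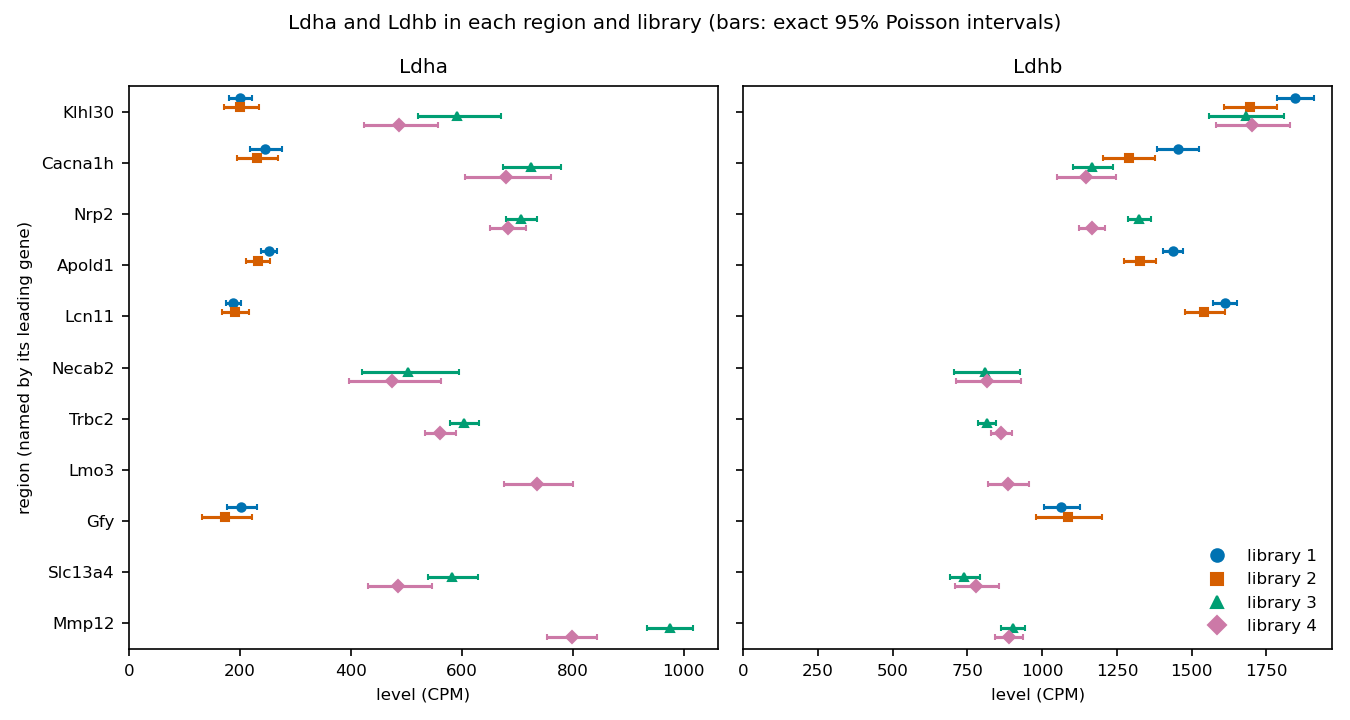
Level of Ldha (left) and Ldhb (right) in CPM in each region and library with at least 30 spots, with exact 95% Poisson intervals. Ldha lies between 173 and 252 CPM in the regions of libraries 1 and 2 and between 474 and 974 CPM in those of libraries 3 and 4, and Ldhb is highest in the Klhl30 region of each library.

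Within the 2 regions held by all libraries, levels can be set side by side over spots of 1 cluster, still without replicates. In the Cacna1h region, 15 of the 31 genes past the minimum had a ratio over 1.5, against 29.3% of all genes, and 6 had one over 2, against 5.72%. Ldha had 245, 230.1, 725 and 679.7 CPM there, and its ratio of 3.15 (2.65 to 3.77) was close to the 3.35 of the whole libraries. Bnip3 had 68.5, 53.1, 200.3 and 179 CPM, and its ratio of 3.77 (2.64 to 5.54) was above the 2.30 of the whole libraries. The others over 2 were Pdk1 at 2.97 (2.01 to 4.49), P4ha1 at 2.79 (1.44 to 5.63), Ankrd37 at 2.67 (1.34 to 5.56) and Pfkl at 2.002 (1.45 to 2.78). Of the glycolytic enzymes under 1.5-fold in whole libraries, 6 passed it here, with Gpi1 at 1.80, Tpi1 at 1.79, Eno1 at 1.71, Pgk1 at 1.69, Pgam1 at 1.61 and Aldoa at 1.51. The remaining 3 were Hif1a at 1.85 (1.06 to 3.43), and Egln3 and Slc2a1 at 1.90 and 1.53 with intervals that included 1. The depth of this region was uneven, with medians of 1917, 2467, 4534 and 4930 UMIs per spot, and its reactive glia genes summed to 132, 67.9, 687 and 589 CPM. The part of either in these ratios was not tested.

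The Klhl30 region was added after the data were seen, as the other region held by every library. Its depth was even, with medians of 12923, 12617, 11563 and 12775 UMIs per spot. Of the 26 genes past the minimum there, 9 had a ratio over 1.5, against 35.1% of all genes. The only one over 2 was Ldha, against 7.98% of all genes, at 200.02, 200.6, 592 and 487 CPM and a ratio of 2.96 (2.51 to 3.48). Libraries 1 and 2 again lay below libraries 3 and 4. Next came Pfkl at 1.92 (1.41 to 2.59), Eno1 at 1.68 (1.42 to 1.999), Gpi1 at 1.67 (1.47 to 1.90) and Pfkp at 1.58 (1.37 to 1.81). Bnip3 had a ratio of 1.47 (1.10 to 1.94). Ldhb, with 1.10 (1.01 to 1.19), was nearly level in this region. The ratios of Ndrg1, P4ha1, Hif1a and Vhl lay between 1.60 and 1.89 but had intervals that included 1. Reactive glia genes summed to 74.2, 60.4, 629.6 and 723 CPM here.

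The hypoxia-target list was less apart in these regions than in whole libraries. In the Cacna1h region its level was -0.25, -0.19, 0.29 and -0.17 log2 units in libraries 1 to 4, but its members did not share 1 order. Egln3 was lowest in library 4, with 26.0, 33.9, 42.0 and 22.1 CPM, and Ndrg1 likewise, with 60.7, 50.2, 54.7 and 46.3 CPM. Against this, Ankrd37, P4ha1 and Ddit4 were highest in library 4, with 55.2, 61.8 and 148 CPM, against 45.9, 50.8 and 116 CPM in library 3. Bnip3 in library 4 also lay near library 3, and Adm, with 4, 2, 29 and 2 UMIs, was too sparse to read. In the Klhl30 region it was -0.14, -0.08, 0.13 and 0.20. The glycolytic list had -0.12, -0.33, 0.26 and 0.20 in the Cacna1h region and -0.05, -0.16, 0.12 and 0.06 in the Klhl30 region. With each gene's level averaged over these regions, the span was 0.436 log2 units for the hypoxia targets and 0.435 for the glycolytic enzymes, against 0.83 and 0.30 in whole libraries.

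Across regions of the same library, the 2 lists followed different tissue. Glycolytic enzymes were highest in the Klhl30 region, by 0.28, 0.23, 0.25 and 0.26 log2 units over the rest of libraries 1 to 4. In other clusterings the highest region of library 1 reached 0.155 to 0.242 and that of library 2 reached 0.127 to 0.207. There Eno2 was 1.58 and 1.64 times the rest of libraries 3 and 4, and Pfkp 1.29, 1.39, 1.68 and 1.45 times the rest of libraries 1 to 4. They were lowest in the Gfy region (-0.54 and -0.40 in libraries 1 and 2) and in the Slc13a4 region (-0.58 and -0.49 in libraries 3 and 4). In each of these, 1 of the 15 or 16 measured enzyme genes lay above the rest of the library. Medians over all genes lay between -0.23 and 0.22 in every region. The share of all genes that lay above the rest of a library was not computed.

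The hypoxia targets were highest in the Mmp12 region of libraries 3 and 4, by 0.87 and 0.60 log2 units, with 11 of 11 genes above the rest of the library in both. They were lowest in the Trbc2 region, at -1.30 and -1.11, with 0 of 11 above. The median over all genes was -0.08 and -0.06 in the Mmp12 region and -0.22 in the Trbc2 region of both libraries. Here too the share of all genes that lay above the rest was not computed, so the counts of genes above have no background share. In library 1 the hypoxia targets were highest in the Cacna1h region, by 0.36 with 8 of 11 genes above, where the median over all genes was 0.11. In library 2 they were highest in the Gfy region, by 0.13. With genes centred within each library before clustering, the highest region of library 2 stood at 0.256. In the Mmp12 region the glycolytic list stood at 0.09 and -0.01. Several marker lists were higher in the same spots than in the rest of libraries 3 and 4. In log2 units, they were nasal mucosa (3.01 and 1.202), reactive glia (2.69 and 2.60), phagocytes (2.64 and 2.68), olfactory ensheathing glia (1.98 and 2.12), red blood cells (1.71 and 0.57), sensory axons (1.18 and 1.08) and microglia (1.16 and 0.83). Leptomeninges genes (0.73 and 1.25), mural genes (0.90 and 0.95), astrocyte genes (0.47 and 0.42), periglomerular genes (0.34 and 0.79) and endothelial genes (0.35 and 0.38) were higher too. In the Trbc2 region forebrain excitatory genes were higher by 2.71 and 2.66. The part of these cells in the list levels was not tested.

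**Figure D4:**
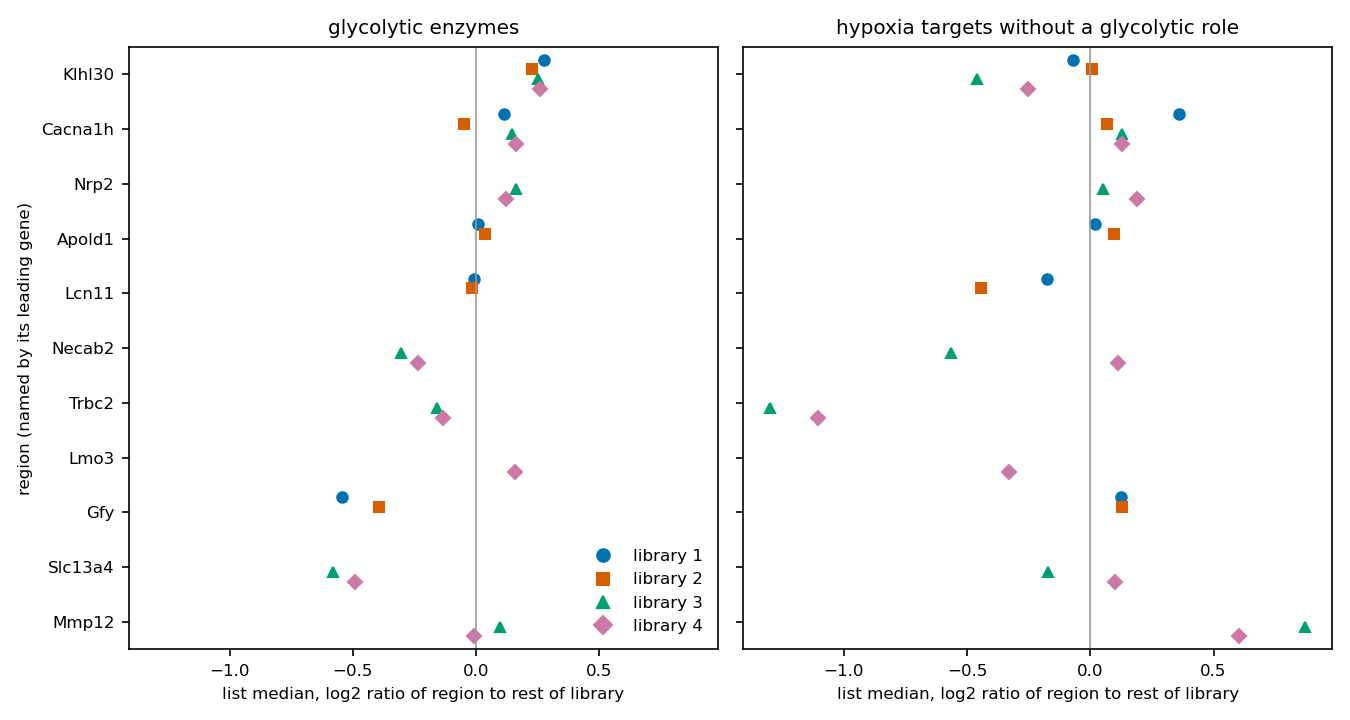
Median over the genes of the glycolytic enzyme list (left) and of the list of hypoxia targets without a glycolytic role (right) of the log2 of a region's level over that of the remaining spots of the library; each point is 1 library with at least 30 spots in the region. The glycolytic list is highest in the Klhl30 region and lowest in the Gfy and Slc13a4 regions, while the hypoxia targets reach 0.87 and 0.60 in the Mmp12 region and -1.30 and -1.11 in the Trbc2 region.

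Gene by gene, 8 of 36 members with at least 100 UMIs were over 2-fold higher in the Mmp12 region than in the rest of library 3, against 8.86% of all genes, and 6 of 35 in library 4, against 8.41%. The lactate carriers were among the higher ones. No member was over 2-fold lower, against 8.77% and 8.93% of all genes in libraries 3 and 4. Slc16a1 stood at 165 and 144 CPM there, 3.77 (3.28 to 4.35) and 3.71 (3.10 to 4.42) times the rest of libraries 3 and 4. Slc16a3 stood at 34.8 and 32.5 CPM, 3.17 (2.34 to 4.29) and 3.88 (2.63 to 5.68) times the rest. Adm, at 59.2 and 35.1 CPM, was 3.50 (2.76 to 4.43) and 3.64 (2.52 to 5.23) times the rest. Although the Mmp12 region held 17.0% and 16.1% of the UMIs of libraries 3 and 4, it held 41.7% and 41.2% of the Adm UMIs.

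Egln3 and P4ha1 had the same pattern, with ratios of 2.78 and 2.58 for Egln3 and 2.47 and 2.54 for P4ha1 in the Mmp12 region of libraries 3 and 4. Hilpda, Slc2a1 and Epas1 passed 2-fold in library 3, at 2.47, 2.06 and 2.02, and Ndrg1 in library 4, at 2.25. Ldha differed less, with 1.497 (1.43 to 1.57) and 1.32 (1.24 to 1.40) times the rest, and so did Bnip3, with 1.39 and 1.19. Neuronal Eno2 was lower, at 0.504 and 0.520 times the rest, and so was Slc2a3, at 0.667 and 0.585. Hk2 had under 100 UMIs in each library and is not counted. It had ratios of 3.56 (2.31 to 5.44) and 5.20 (2.79 to 9.69).

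In the Trbc2 region, 0 of the members were over 2-fold higher than the rest, against 5.44% and 4.70% of all genes in libraries 3 and 4, and 9 were over 2-fold lower in each, against 16.1% and 13.3%. Adm stood at 2.85 and 3.18 CPM, 0.0881 and 0.175 times the rest of libraries 3 and 4. Slc16a3 was 0.175 and 0.271 times the rest, Slc16a1 0.244 and 0.349, and Ndrg1 0.247 and 0.282. Ldha was only slightly lower there, at 604 and 561 CPM, or 0.811 and 0.839 times the rest, and Bnip3 at 0.917 and 0.934. Ldha and Bnip3 thus differed little between these spots and the rest, while Adm and the lactate carriers differed widely. In libraries 1 and 2 Slc16a1 was highest in the Gfy region, at 74.0 and 87.8 CPM, or 2.64 and 2.58 times the rest. Slc2a1 was 2.25 and 2.45 times the rest there, and Ndrg1 1.998 and 2.13 times. The fold behind these regional counts adds a prior count of 0.5 to both sides, which takes Ndrg1 just past 2-fold in library 1. Of the members past 100 UMIs, 4 of 33 in library 1 and 3 of 31 in library 2 were over 2-fold higher in the Gfy region, against 6.83% and 4.5% of all genes. The fourth of library 1 was Epas1. 

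**Figure D5:**
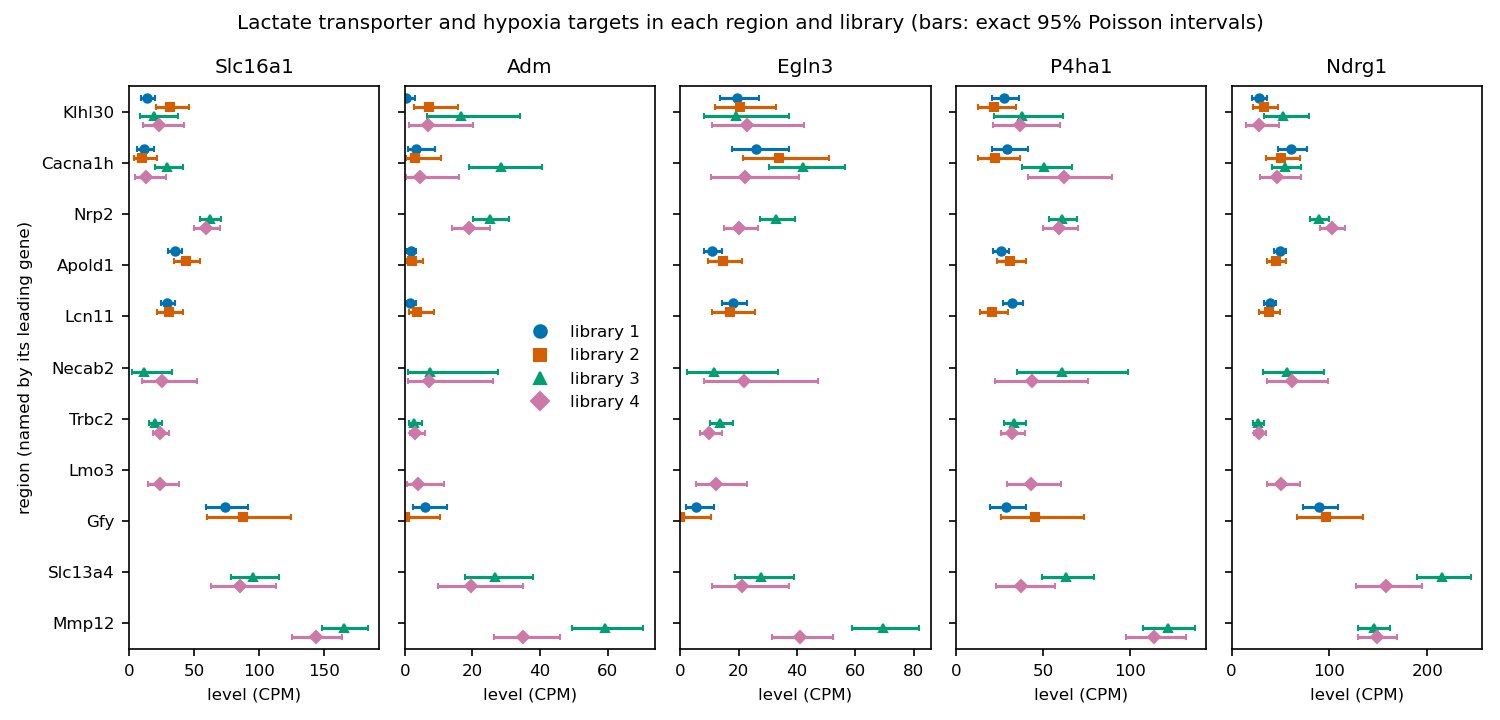
Level in CPM of the lactate carrier gene Slc16a1 and the hypoxia targets Adm, Egln3, P4ha1 and Ndrg1 in each region and library with at least 30 spots, with exact 95% Poisson intervals. Slc16a1, Adm, Egln3 and P4ha1 are highest in the Mmp12 region of libraries 3 and 4, and all 5 genes are low in the Trbc2 region.

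Single members had other regional patterns. Pfkp, the platelet-type phosphofructokinase subunit gene that is prominent in neurons, was 2.55, 2.67, 1.81 and 2.07 times the rest in the Cacna1h region of libraries 1 to 4. In this region 2, 1, 1 and 3 members were over 2-fold higher than the rest, against 8.76%, 9.38%, 8.79% and 10.5% of all genes. Ddit4 and Ankrd37 were over 2-fold higher there in library 4, at 2.15 and 2.47, and Pdk1 in library 3, at 2.06. Slc16a1, Slc2a1 and Epas1 were low in the Cacna1h region of every library, with ratios of 0.229 to 0.434, 0.393 to 0.512 and 0.379 to 0.538. Ndrg1 was highest in the Slc13a4 region of both libraries 3 and 4, at 215.5 and 158 CPM, or 2.92 and 2.13 times the rest. There Slc2a1 and Epas1 were 2.19 and 2.01 times the rest of library 4. The Slc13a4 region thus had 1 of 36 members over 2-fold higher in library 3 and 3 of 35 in library 4, against 6.35% and 4.62% of all genes. No member was over 2-fold higher in the remaining regions. These were Apold1 (1.39% and 1.13% of all genes), Lcn11 (0.183% and 0.266%), Nrp2 (1.08% and 0.996%), Necab2 (11.6% and 12.7%), Lmo3 in library 4 (2.16%) and Klhl30 (1.65%, 1.32%, 4.34% and 4.42%).

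Spot by spot, each spot was thinned to 2000 UMIs, so that 233, 89, 42 and 20 spots below that depth were not used. A thinned spot held a median of 25, 24, 27 and 26 UMIs of the glycolytic enzymes and 1 UMI of the hypoxia targets in each library. Ldha was seen in 34.3%, 31.9%, 72.6% and 69.0% of thinned spots, against 70.4%, 67.6%, 95.9% and 94.8% without thinning. Ldhb was seen in 94.1%, 91.9%, 85.5% and 84.5% of thinned spots. Adm was seen in 0.490%, 0.799%, 4.78% and 2.28%, and Bnip3 in 17.0%, 17.4%, 31.3% and 27.0%. These are shares of spots with a UMI, not of cells that express the gene, since RNA can spread between spots. Spearman's rho between the UMIs of the 2 lists over thinned spots was -0.05, -0.06, 0.11 and 0.07 in libraries 1 to 4, too weak in such sparse counts to read. The glycolytic enzymes had rho of 0.29, 0.29, 0.28 and 0.36 with granule cell genes and of -0.36, -0.32, -0.33 and -0.36 with leptomeninges genes, over 1429, 626, 1254 and 923 spots that share their library and depth. With olfactory ensheathing glia genes rho was -0.48, -0.37, -0.23 and -0.24.

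Further genes of the same pathways were taken from lists of 28 glycolysis and pyruvate genes and 24 hypoxia genes. Of the 26 of these glycolysis genes past the minimum, 9 passed 1.5-fold and 5 passed 2-fold, a share near the 30.4% and 14.2% of all genes, and their median ratio was 1.22. Pygm, which encodes muscle glycogen phosphorylase and is known from astrocytes in brain, had the order of Ldhb, with 66.1, 58.6, 20.1 and 18.04 CPM and a ratio of 3.67 (3.11 to 4.34). Pfkfb3, which makes the activator of phosphofructokinase, had that of Ldha, at 19.3, 17.2, 38.9 and 34.0 CPM. Pdp1, the phosphatase gene that switches pyruvate dehydrogenase back on, stood at 35.3, 41.5, 71.4 and 72.9 CPM. The others over 2-fold were Hkdc1, a further hexokinase gene, at 4.54 (2.60 to 8.56) and the muscle mutase gene Pgam2 at 2.01 (1.04 to 4.18), both highest in library 4.

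Of the 22 hypoxia genes past the minimum, 12 passed 1.5-fold and 10 passed 2-fold, and their median ratio was 1.74. Vegfa, which encodes the angiogenic ligand, had 53.3, 53.8, 188 and 163 CPM and a ratio of 3.53 (3.25 to 3.85). The immediate stress gene Ier3 had 9.09, 8.61, 69.5 and 53.7 CPM. Lox and Loxl2, which cross-link collagen, had ratios of 12.4 (6.28 to 27.8) and 2.86 (1.90 to 4.41). The mitochondrial adenylate kinase gene Ak4 had a ratio of 2.97 (2.18 to 4.12), the haem oxygenase gene Hmox1 one of 2.96 (1.80 to 5.16) and the transferrin receptor gene Tfrc one of 2.20 (1.958 to 2.48), all highest in library 3. The stanniocalcin gene Stc2 had 4.06 (2.35 to 7.39), the Arnt paralog Arnt2 2.05 (1.85 to 2.27) and Zfp395 2.15 (1.56 to 2.96), of which Arnt2 and Zfp395 were highest in library 4. Car9, the hypoxia-induced carbonic anhydrase gene, missed the minimum of 3 UMIs in each library, with 1, 1, 930 and 464 UMIs, or 0.0752, 0.191, 74.2 and 48.7 CPM.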

How the data were processed

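The deposited matrix holds raw UMI counts per gene and spot, made with Space Ranger 1.3.1 per the matrix's file header. The submitters' processing notes name GRCm39 as the build. The authors pooled 4 capture areas in it and no depth scaling is stated. Spots with under 500 UMIs were left out (97 of 4713). Counts were summed per library, region and gene. All 4 libraries were kept apart, because no label names their numbers. Any 2 libraries differed beyond sampling noise, with a chi-square of at least 2.71 per degree of freedom.

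A gene entered counts of genes past a fold if it reached 100 UMIs over the matrix and 3 in every library. Regions came from 2000 variable genes, 30 principal components, 15 neighbours and Leiden clustering at resolution 0.8, without the members, pathway genes, marker genes and mitochondrial, ribosomal and haemoglobin genes. Region levels use at least 30 spots, and list medians genes with at least 20 UMIs and a prior count of 0.5. No p-value was computed, since a library is 1 sample. Members past 1.5-fold between libraries are described one by one and the others by range and count, and further pathway genes are named where they passed 2-fold. The members and lists were chosen with earlier results of these data known. TMM scaling (edgeR 4.0.16), other filters, folds, resolutions and depths were alternatives. Scripts were tested on simulated data. Promoters come from RefSeq on GRCm38.p6 and were matched by symbol. Software was Python 3.11.15, numpy 2.4.6, scipy 1.17.1, pandas 2.3.3, scikit-learn 1.9.0, igraph 0.11.9, leidenalg 0.10.2, matplotlib 3.10.9 and R 4.3.3.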

Additional observations from a re-analysis of the deposited data

How the results depend on the processing

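No paired analysis was possible because the library numbers match no sample label, so neither the replicate numbers nor the groups of the labels could be tied to a library. Of 182 values under any setting, 60 were the reported ones, 110 moved by no more than their counting error or, for counts, by at most 1.5-fold, and 12 moved further. Many of the unmoved values were isoenzyme shares, which were tried only with the minimum of 500 UMIs per spot removed. That change restores 97 of 4713 spots, all of few UMIs, and could hardly move a share, so this tally overstates the stability. Spearman's rho in library 2 changed sign, at 0.02 from shares without thinning against -0.06, and neither value can be read as a relation. The count of 15 genes past 1.5-fold was 10 past 2-fold, 11 among genes with at least 500 UMIs and 12 to 15 with each library left out. In the Cacna1h region the count of 15 was 6 past 2-fold, and it was 9 in the Klhl30 region, which was added after seeing the data. The glycolytic span of 0.30 was 0.435 as a mean over the regions held by all libraries, 0.378 without genes that have near-identical copies and 0.212 to 0.312 with each library left out. The hypoxia span of 0.83 was 0.436 over those regions and 0.591 to 0.840 with each library left out, lowest without library 3. The glycolytic level of its highest region in library 1 was 0.155 at resolution 0.4 and 0.173 with genes centred within the library. Spearman's rho between both lists was -0.182 in library 1 and 0.195 in library 3 within the Cacna1h region, and 0.215 in library 3 from shares without thinning. The cause of these shifts was not tested. Of the 37 ratios, 27 to 35 stayed within their intervals with each library left out and 35 to 37 under other scalings and depth filters. Those scalings moved the median of all genes by at most 0.03 log2 units. Counts of 3 to 14 UMIs limit Slc16a3 and Hk2 in libraries 1 and 2.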

Other observations

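The labels put none of the 4 libraries in a group, and their values over all genes fell unevenly. The chi-square per degree of freedom between libraries was 2.71 for libraries 1 and 2 and 3.05 for libraries 3 and 4. It was 44.0 for libraries 1 and 3, 37.6 for libraries 1 and 4, 24.0 for libraries 2 and 3 and 22.5 for libraries 2 and 4. Among the 37 genes, the Ldha share of lactate dehydrogenase UMIs lay at 12.7%, 13.0%, 40.3% and 38.9% in libraries 1 to 4, and the gap between 13.0% and 38.9% held no library.

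Glycogen genes did not share 1 order. Pygm was highest in library 1, with 66.1, 58.6, 20.1 and 18.04 CPM, whereas Gys1, the muscle-type glycogen synthase gene, was highest in library 3, with 18.2, 17.2, 26.4 and 23.8 CPM. Eno3, the muscle enolase gene, was highest in library 2, with 14.7, 17.6, 9.41 and 11.3 CPM. The lactate carrier gene Slc16a7, which encodes the neuronal carrier MCT2, was highest in library 4, with 10.7, 10.7, 16.2 and 18.9 CPM. These genes passed 1.5-fold but, apart from Pygm, not 2-fold, and were named after their values were seen.

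The share of mitochondrial UMIs was 8.93%, 9.55%, 7.34% and 7.46% in libraries 1 to 4. Of 2796 barcode sequences, 1460 occurred in more than 1 library. All capture areas carry the same set of spot barcodes, so shared sequences do not mark shared spots.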
